A study of Mus musculus with 12 samples.

Results

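Egr1, Egr2, Egr3, Nr4a1, Nr4a2, Nr4a3, Fos, Fosb, Jun and Junb are transcription factors of the immediate early class, and their mRNA levels are described here in dendritic cells and macrophages grown from mouse bone marrow. They were chosen by symbol as members of the EGR, NR4A, FOS and JUN families, with earlier results of these data known. Egr4 and the remaining FOS and JUN genes are not among them and are counted in other lists. Counts of the genes beside shares of all genes are therefore description and no test. Only probe sets with 1 symbol in the platform annotation were read, and a gene with several is taken at the one that is brightest on average over the 12 arrays. These are 10 of the 19938 genes measured in the series, and each of the 10 has a single such probe set.

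All samples came from bone marrow of the tibia and femur of C57B/6 mice, cultured for 6 days with 20 ng/ml of recombinant GM-CSF, a growth factor for myeloid cells. Total RNA was hybridised to Affymetrix Mouse Gene 1.0 arrays, with 3 arrays in each of 4 groups. GM-DC with LPS were cells labelled dendritic and stimulated for 4 hours with 10 ng/ml of LPS, a bacterial cell wall component sensed through TLR4. Unstimulated GM-DC were the same kind of cells without LPS. GM-MF with LPS were cells labelled macrophage given the same LPS stimulus, and unstimulated GM-MF were left without it. The labels do not give the gate or markers by which GM-DC and GM-MF were told apart, nor the age or number of the mice. They also do not state that the 3 arrays of a group stand for separate mice or cultures, so the p-values below rest on array-to-array spread that may be purely technical.

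Immediate early genes are switched on within minutes of a stimulus by factors already present in the cell, among them SRF at CArG boxes, CREB at cyclic AMP response elements and NF-kB, and most of their mRNAs decay quickly. EGR proteins are zinc finger factors that bind GC-rich sites, NR4A proteins are nuclear receptors that work without a known natural ligand, and FOS proteins pair with JUN proteins to form AP-1. In myeloid cells these factors act downstream of growth factor receptors and Toll-like receptors. The arrays hold a single time with LPS, 4 hours, so a change that came and went before it would not be seen.

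Values are log2 RMA levels, so a difference of 1 is a 2-fold change, and levels are compared within a gene and never between genes, since probe sets differ in brightness. The array medians lay between 4.41 and 4.54, and arrays of the same group correlated at 0.993 to 0.996 across genes. The cell labels were checked against marker lists: all 6 dendritic cell markers (such as Flt3, Ccr7 and Fscn1) were higher, and all 7 macrophage markers (such as Csf1r, Fcgr1 and Itgam) lower, in GM-DC than in GM-MF, with and without LPS. All 6 LPS check genes, Tnf, Il6 and Il1b among them, rose with LPS in both cell types. Their levels without LPS were unlike, with 2 of the 6 higher and 3 lower in GM-DC than in GM-MF. Tnf averaged 5.79 in unstimulated GM-DC, 8.59 in GM-DC with LPS, 10.83 in unstimulated GM-MF and 11.90 in GM-MF with LPS. Il6 averaged 7.75, 9.73, 6.01 and 12.22 in the same order. The part of these levels in the LPS responses below was not tested. Lists of markers of erythroid, stromal, lymphoid, granulocyte and mast cells had mean levels between 3.03 and 6.40 on every array, but single members were brighter and differed between the cell types. Of 7 neutrophil markers, 1 was higher and 5 were lower in GM-DC than in GM-MF with LPS, against 20.9% and 15.4% of all genes. S100a8 averaged 9.40 in GM-DC with LPS, 9.61 in unstimulated GM-DC, 10.90 in GM-MF with LPS and 10.55 in unstimulated GM-MF. Of 5 mast cell and basophil markers, only Kit differed by the test below between unstimulated GM-DC and unstimulated GM-MF, 8.33-fold higher in GM-DC. Of 4 T and NK cell markers only Cd8a did so, 8.50-fold higher in GM-DC. The part of any such cells in the results was not tested. One pair of arrays stood apart for the genes described here: GM-DC replicate 3 had the highest value of its group for 8 of the 10 with LPS and for 9 of the 10 without it. The deviation of each gene on that array was taken from the mean of the other arrays of its group. Its median over the 10 genes was 0.29 with LPS and 0.41 without it, against -0.02 and 0.0015 over all genes. The other immediate early genes listed further on shared the shift, with median deviations of 0.12 with LPS and 0.26 without it. On the same arrays the heat shock genes, a sign of handling stress, had median deviations of -0.05 and -0.01. Results that rest on this replicate are given with and without it. It stood apart in both conditions, so leaving it out of the unstimulated group alone shifts an LPS difference.

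Differences were tested with limma over all 12 arrays and adjusted over all 19938 genes by Benjamini-Hochberg, and a gene is called higher or lower at an adjusted p under 0.05. In unstimulated cells, 2 of the 10 genes were higher in GM-DC than in GM-MF and 5 were lower, where 18% of all genes were called higher and 16.2% lower. With LPS, 3 of the 10 were higher and 1 lower in GM-DC, against 20.9% and 15.4% of all genes. In GM-DC, LPS raised 1 of the 10 genes and lowered 0, against 5.23% and 4.49% of all genes. That count was 5 without unstimulated GM-DC replicate 3, 4 without replicate 3 of GM-DC in both conditions, and 4 with the replicate number within each cell type as a block. The shares just given are those of the main fit. Over all genes, leaving out 1 array at a time gave 1331 to 2009 calls for this response, against 1938 with all arrays. By limma at an unadjusted p under 0.05, 5 of the 10 differed with LPS in GM-DC, as did 3884 of all 19938 genes. In GM-MF, LPS raised 3 of the 10 and lowered 2, against 6.54% and 10.8% of all genes. The difference between the LPS responses, GM-DC minus GM-MF, was called for 4 of the 10, 3 positive and 1 negative, against 4.53% and 3.06% of all genes. This main fit used no replicate block. With the block within each cell type, more of the 10 were called for the GM-MF response and for the difference of responses, as counted in the closing section. These comparisons share arrays with each other and are not independent.

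**Figure D1:**
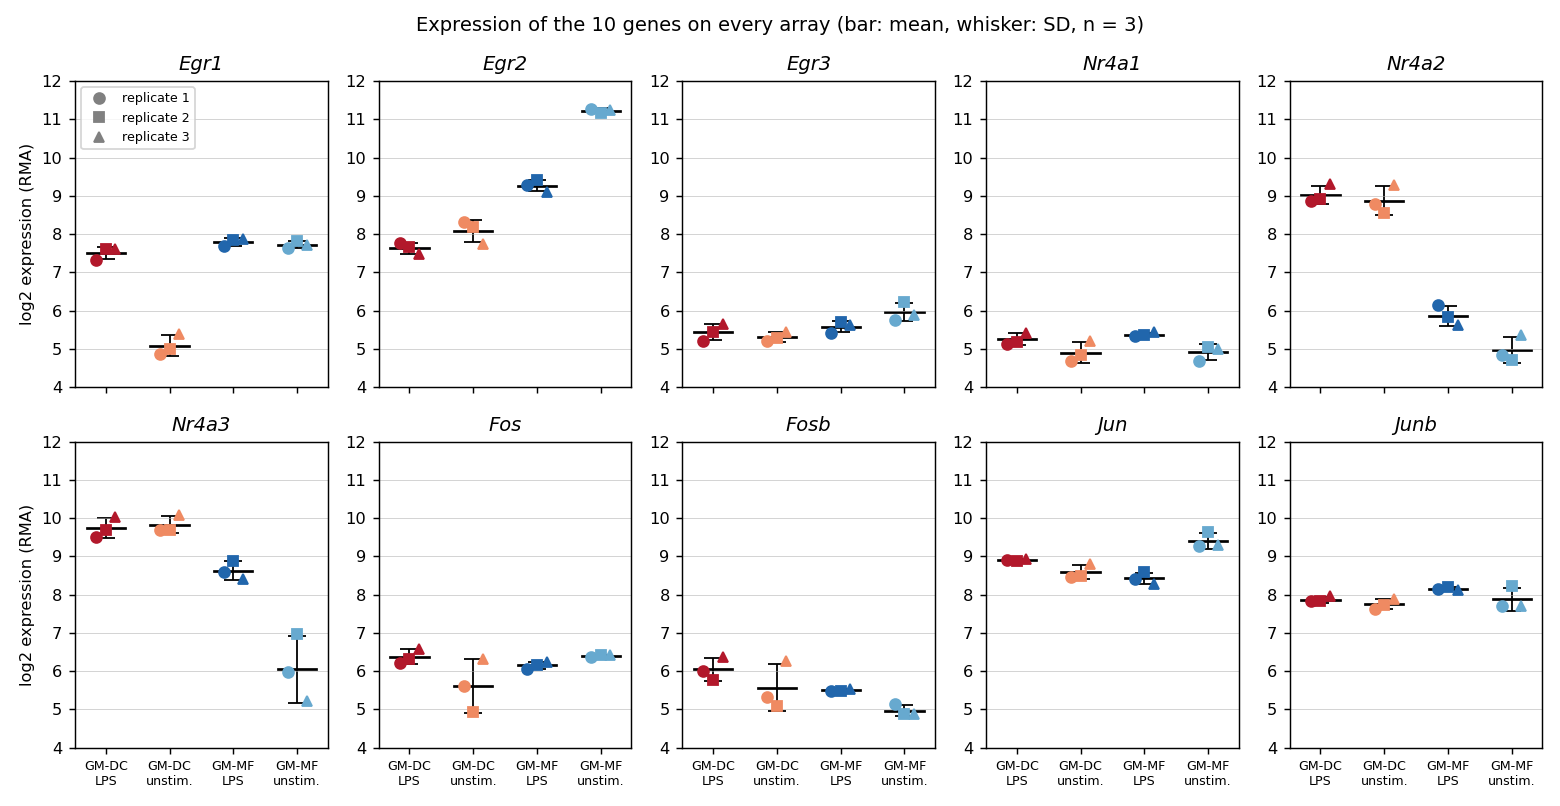
Each panel plots the log2 RMA level of 1 of the 10 genes on the 12 arrays, 3 per group, with a bar at each group mean and whiskers of 1 SD. Egr2 is highest in unstimulated GM-MF at 11.17 to 11.27, Nr4a2 and Nr4a3 lie above GM-MF in both GM-DC groups, and Egr1 is low only in unstimulated GM-DC, at 4.87 to 5.39.

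The EGR genes split the cell types in the unstimulated state. Egr1, Egr2 and Egr3 were all lower in unstimulated GM-DC than in unstimulated GM-MF, by 6.22-fold, 8.86-fold and 1.56-fold. By limma the adjusted p was 3.83e-10 for Egr1 and 9.03e-11 for Egr2. With LPS only the Egr2 difference passed the test, and Egr1 rose with LPS in GM-DC while Egr2 fell with LPS in GM-MF.

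Egr1, a growth and stress responsive activator, had levels of 7.31, 7.60 and 7.60 in GM-DC with LPS, against 4.87, 4.997 and 5.39 in unstimulated GM-DC. It had 7.69, 7.84 and 7.86 in GM-MF with LPS and 7.65, 7.81 and 7.71 in unstimulated GM-MF. Unstimulated GM-DC stood alone at the bottom, and the 3 other groups lay within a narrow band. LPS raised Egr1 in GM-DC by 2.42 ± 0.13 on the log2 scale (SE), a 5.35-fold rise with an adjusted p of 1.56e-08. In GM-MF the LPS difference was 0.07 ± 0.13 (adjusted p = 0.804). Macrophage markers also moved with LPS in GM-DC, 3 of the 7 higher and 1 lower, against 5.23% and 4.49% of all genes. Adgre1 rose 2.36-fold (adjusted p = 2.77e-05) and Mertk 1.996-fold (adjusted p = 0.000904), and Csf1r fell by 1.62 on the log2 scale (adjusted p = 5.39e-07). The mean level of the list was 5.60 to 5.82 in GM-DC with LPS and 5.48 to 5.65 in unstimulated GM-DC, against 9.84 to 10.1 in GM-MF with LPS and 9.67 to 9.95 in unstimulated GM-MF, and its part in the Egr1 rise was not tested. The group means were 7.51 ± 0.17 in GM-DC with LPS, 5.09 ± 0.27 in unstimulated GM-DC, 7.80 ± 0.10 in GM-MF with LPS and 7.72 ± 0.08 in unstimulated GM-MF (SD, n = 3 each). In order, GM-MF with LPS came highest and overlapped unstimulated GM-MF, GM-DC with LPS lay just below both, and unstimulated GM-DC came last. The difference between GM-DC and GM-MF with LPS was -0.29 ± 0.13 (adjusted p = 0.107). That difference was called under cyclic loess scaling, at -0.46 (adjusted p = 0.0164), and without GM-DC replicate 3 in both conditions, at -0.34 (adjusted p = 0.0439).

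Egr2, an EGR factor known in macrophages as an alternative activation marker, had levels of 7.76, 7.66 and 7.48 in GM-DC with LPS, against 8.31, 8.18 and 7.75 in unstimulated GM-DC. It had 9.27, 9.40 and 9.11 in GM-MF with LPS, against 11.27, 11.17 and 11.25 in unstimulated GM-MF. Every GM-MF array lay above every GM-DC array, and the LPS and unstimulated GM-MF arrays did not overlap. In GM-DC the LPS difference was -0.45 ± 0.14 with an adjusted p of 0.0571. It passed the test with the replicate number within each cell type as a block (adjusted p = 0.0214), and at -0.61 without unstimulated GM-DC replicate 3 (adjusted p = 0.00528). Of 24 alternative settings 10 called it, replicate 3 left out in both conditions among them. Over all 24 the adjusted p ran from 0.00528 to 0.2635. Egr2 fell with LPS in GM-MF by 1.97 on the log2 scale (SE 0.14), a 3.91-fold decrease with an adjusted p of 1.79e-07. With LPS, Egr2 was 3.09-fold lower in GM-DC than in GM-MF (difference -1.63 ± 0.14, adjusted p = 1.44e-07). The group means were 7.63 ± 0.14 in GM-DC with LPS, 8.08 ± 0.30 in unstimulated GM-DC, 9.26 ± 0.15 in GM-MF with LPS and 11.23 ± 0.05 in unstimulated GM-MF (SD, n = 3 each), in rising order, and of these neighbours only the GM-DC groups overlapped.

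The Egr2 promoter is shown because Egr2 had the largest unstimulated GM-MF excess of the EGR genes and a CArG box lies close to its annotated start. The window is mouse chr10:67537619-67537918 on the plus strand (GRCm38.p6, from RefSeq), 250 bases before to 50 bases after a transcript start. Capitals mark a CArG box, the SRF site, which begins 72 bases before the start, and a cyclic AMP response element core, which begins 56 bases before it and reads TGACGT on the minus strand.
Egr2: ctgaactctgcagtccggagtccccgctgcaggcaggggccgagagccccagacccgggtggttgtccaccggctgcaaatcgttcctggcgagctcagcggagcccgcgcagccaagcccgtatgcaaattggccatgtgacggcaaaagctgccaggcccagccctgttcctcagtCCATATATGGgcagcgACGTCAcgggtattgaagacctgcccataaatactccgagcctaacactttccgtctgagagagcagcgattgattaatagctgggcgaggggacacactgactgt
A CArG box was present in 1.63% and the TGACGT core in 7.51% of the 32851 RefSeq windows of this length, both strands read. RefSeq gives Egr2 5 such windows. Windows 3 to 5 overlap and share this CArG box, and window 2, upstream, holds another. The match is to the letters alone and shows no binding. This window was shown for its CArG box, and the TGACGT core was added to the motifs after the promoters had been looked at. The shares above therefore do not measure how unusual the window is.

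Egr3, the third EGR factor, ranged between 5.20 and 6.22 over the 12 arrays. Its mean levels were 5.44 ± 0.21 in GM-DC with LPS, 5.32 ± 0.13 in unstimulated GM-DC, 5.58 ± 0.14 in GM-MF with LPS and 5.96 ± 0.23 in unstimulated GM-MF (SD, n = 3 each). Unstimulated GM-MF lay above the other groups, and below it came GM-MF with LPS, GM-DC with LPS and unstimulated GM-DC, each overlapping the next. Egr3 was lower in unstimulated GM-DC than in unstimulated GM-MF (difference -0.64 ± 0.14, adjusted p = 0.0017). Its LPS difference in GM-DC was 0.12 ± 0.14 (adjusted p = 0.758). Its LPS difference in GM-MF, -0.38 ± 0.14, had an adjusted p of 0.084, and of 0.0169 with the replicate block within cell type.

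Of the EGR corepressors and relatives, 3 genes were measured (median difference between unstimulated GM-DC and GM-MF -0.38, against -0.01 over all genes). In unstimulated cells 2 of the 3 were lower in GM-DC, against 16.2% of all genes. The other, Egr4, averaged 4.71 in unstimulated GM-DC and 4.76 in unstimulated GM-MF (adjusted p = 0.863 by limma). With LPS 1 was higher and 1 lower, against 20.9% and 15.4% of all genes. Nab2, a corepressor that binds EGR proteins and is itself an EGR target, had mean levels of 6.58 ± 0.30 in GM-DC with LPS, 6.69 ± 0.12 in unstimulated GM-DC, 7.30 ± 0.15 in GM-MF with LPS and 8.08 ± 0.23 in unstimulated GM-MF (SD, n = 3 each). It fell with LPS in GM-MF by 0.79 on the log2 scale (SE 0.15, adjusted p = 0.00191). Nab1, the related corepressor, rose with LPS in GM-DC by 0.44 ± 0.09 (adjusted p = 0.00499).

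The NR4A genes ran the other way. Nr4a2 and Nr4a3 were 15-fold and 13.7-fold higher in unstimulated GM-DC than in unstimulated GM-MF, and 8.94-fold and 2.17-fold higher with LPS. LPS raised both in GM-MF, and in GM-DC neither LPS difference passed the test. The Nr4a1 differences between GM-DC and GM-MF, -0.01 without LPS and -0.12 with it, did not pass it either (adjusted p = 0.969 and 0.572).

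The promoters of Nr4a2 and Nr4a3 are shown for these differences. For Nr4a2 the window is mouse chr2:57123954-57124253 on the minus strand and for Nr4a3 chr4:48045055-48045354 on the plus strand (GRCm38.p6, from RefSeq), each written along the gene. Capitals mark an EGR site (GCGNGGGCG) in Nr4a2, 74 bases before the start, and 3 copies of TGACGT in Nr4a3, which begin 231, 205 and 147 bases before the start.
Nr4a2: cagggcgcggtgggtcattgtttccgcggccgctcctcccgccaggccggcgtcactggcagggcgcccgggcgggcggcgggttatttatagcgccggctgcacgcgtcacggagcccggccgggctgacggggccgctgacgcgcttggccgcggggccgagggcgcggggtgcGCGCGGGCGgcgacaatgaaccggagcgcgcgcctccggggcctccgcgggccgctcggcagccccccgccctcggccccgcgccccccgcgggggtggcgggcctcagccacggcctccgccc
Nr4a3: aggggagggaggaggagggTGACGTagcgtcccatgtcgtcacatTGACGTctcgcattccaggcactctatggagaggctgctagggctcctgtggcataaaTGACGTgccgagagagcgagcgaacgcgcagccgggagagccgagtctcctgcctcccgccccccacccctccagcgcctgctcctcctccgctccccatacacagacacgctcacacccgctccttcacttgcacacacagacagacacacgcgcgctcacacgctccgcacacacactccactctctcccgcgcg
The EGR site was present in 5.55% of all windows, and 0.201% of them, 66 of 32851, held 3 or more copies of TGACGT. That core was added to the motifs after the promoters had been looked at, and it lies within the full cyclic AMP response element TGACGTCA, which 1.79% of windows held. The cut at 3 copies is the number found in the Nr4a3 window. The Nr4a2 window was 81.7% G and C, and every fixed letter of the EGR site is G or C. Shares for windows of like content were not computed. The other motifs searched on both strands were AP-1 sites (TGANTCA, in 7.81% of windows), the NR4A response element (AAAGGTCA, 1.51%) and NF-kB sites (8.46%). Windows of 8 of the 10 genes, all but Egr1 and Egr3, were read. Fos held a TGACGT core and an NF-kB site, Fosb and Nr4a1 an EGR and an NF-kB site each, and Egr2 window 1 an NF-kB site. Jun and Junb held none of these letters in their windows.

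Nr4a2, which encodes the receptor NURR1, had levels of 8.87, 8.91 and 9.30 in GM-DC with LPS, against 8.78, 8.55 and 9.29 in unstimulated GM-DC. It had 6.15, 5.83 and 5.63 in GM-MF with LPS, against 4.84, 4.71 and 5.35 in unstimulated GM-MF. The GM-DC groups overlapped each other and lay wholly above GM-MF, and GM-MF with LPS lay wholly above unstimulated GM-MF. GM-DC exceeded GM-MF by 3.91 ± 0.20 without LPS (adjusted p = 6.43e-10) and by 3.16 ± 0.20 with it (adjusted p = 7.07e-09). The LPS difference in GM-DC was 0.15 ± 0.20 (adjusted p = 0.803), and LPS raised Nr4a2 in GM-MF by 0.90 ± 0.20 (adjusted p = 0.00589). The group means were 9.03 ± 0.24 in GM-DC with LPS, 8.88 ± 0.37 in unstimulated GM-DC, 5.87 ± 0.26 in GM-MF with LPS and 4.97 ± 0.34 in unstimulated GM-MF (SD, n = 3 each), in falling order.

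Nr4a3, which encodes NOR1 and is known in mice for a role in dendritic cell migration, had levels of 9.52, 9.69 and 10.03 in GM-DC with LPS, against 9.69, 9.70 and 10.08 in unstimulated GM-DC. It had 8.60, 8.88 and 8.41 in GM-MF with LPS, against 5.98, 6.96 and 5.21 in unstimulated GM-MF. Unstimulated GM-MF was the lowest group and the one with the widest spread (SD 0.88), and the GM-MF arrays with LPS lay between it and the GM-DC arrays. The LPS difference in GM-DC was -0.08 ± 0.31 (adjusted p = 0.948). LPS raised Nr4a3 in GM-MF by 2.58 ± 0.31, a 5.96-fold rise with an adjusted p of 3.08e-05. GM-DC exceeded GM-MF by 3.77 ± 0.31 without LPS (adjusted p = 9.49e-08) and by 1.12 ± 0.31 with it (adjusted p = 0.00908). Its group means were 9.75 ± 0.26 in GM-DC with LPS, 9.83 ± 0.22 in unstimulated GM-DC, 8.63 ± 0.24 in GM-MF with LPS and 6.05 ± 0.88 in unstimulated GM-MF (SD, n = 3 each). Unstimulated GM-DC ranked first and overlapped GM-DC with LPS, and the GM-MF groups followed without overlap.

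The dendritic cell markers moved with LPS in GM-MF as well. Their mean level was 9.85 to 9.93 in GM-DC with LPS and 9.72 to 10.0 in unstimulated GM-DC, and 6.03 to 6.58 in GM-MF with LPS, against 5.17 to 5.64 in unstimulated GM-MF. In GM-MF, 4 of the 6 markers rose with LPS, against 6.54% of all genes. Ccr7, the receptor that guides migration to lymph nodes, rose 5.53-fold there (adjusted p = 1.04e-05). Flt3, one of the 6, lay under the lowest array median on every GM-MF array, and Dpp4 averaged 4.62 in GM-MF with LPS and 4.37 in unstimulated GM-MF. Their part in the Nr4a2 and Nr4a3 rise was not tested. In such bulk RNA, more cells of a type and more RNA per cell cannot be told apart.

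Nr4a1, which encodes NUR77, ranged between 4.68 and 5.43. Its mean levels were 5.25 ± 0.15 in GM-DC with LPS, 4.90 ± 0.26 in unstimulated GM-DC, 5.38 ± 0.05 in GM-MF with LPS and 4.91 ± 0.20 in unstimulated GM-MF (SD, n = 3 each). GM-MF with LPS ranked first and overlapped GM-DC with LPS. Unstimulated GM-MF and then unstimulated GM-DC followed and overlapped each other, and the highest unstimulated GM-DC array, at 5.19, reached into the range of GM-DC with LPS. In GM-DC the LPS difference was 0.35 ± 0.14 (adjusted p = 0.16), and 0.50 without unstimulated replicate 3 (adjusted p = 0.0326). That was the only 1 of 24 alternative settings to call it, so it was not called without replicate 3 in both conditions. LPS raised Nr4a1 in GM-MF by 0.46 ± 0.14 (adjusted p = 0.0318). The call was lost without GM-MF with LPS replicate 1 (0.48, adjusted p = 0.0662), 2 (0.47, adjusted p = 0.0697) or 3 (0.44, adjusted p = 0.101), and without unstimulated GM-MF replicate 1 (0.35, adjusted p = 0.155) or 3 (0.51, adjusted p = 0.0505).

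Retinoid X receptors, with which NR4A1 and NR4A2 can pair, were measured by 3 genes (median unstimulated difference 0.02). In unstimulated cells 1 was higher and 1 lower in GM-DC, against 18% and 16.2% of all genes. Rxra was lower in unstimulated GM-DC than in GM-MF by 1.26 ± 0.14 (adjusted p = 3.51e-06), and it fell with LPS in GM-MF by 0.94 on the log2 scale (SE 0.14, adjusted p = 0.000257).

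Of the 4 AP-1 genes, Jun and Fos were lower in unstimulated GM-DC than in unstimulated GM-MF, and Jun was higher in GM-DC with LPS. Fosb and Junb passed the test in no comparison of the main fit, and in some under other settings given below. Jun, the founding AP-1 subunit, had levels of 8.91, 8.88 and 8.93 in GM-DC with LPS, against 8.47, 8.49 and 8.80 in unstimulated GM-DC. It had 8.42, 8.58 and 8.29 in GM-MF with LPS, against 9.27, 9.63 and 9.30 in unstimulated GM-MF. Unstimulated GM-MF was highest and GM-MF with LPS lowest, with the GM-DC groups between them. The LPS difference in GM-DC was 0.32 ± 0.12 (adjusted p = 0.149), and 0.37 with array weights (adjusted p = 0.0429). Jun fell with LPS in GM-MF by 0.97 on the log2 scale (SE 0.12, adjusted p = 6.11e-05), a 1.96-fold decrease. It was lower in GM-DC than in GM-MF without LPS (difference -0.82 ± 0.12, adjusted p = 8.05e-05) and higher with LPS by 0.48 ± 0.12 (adjusted p = 0.00647). The second of these was 0.33 (adjusted p = 0.0703) under cyclic loess scaling. Mean levels were 8.91 ± 0.03 in GM-DC with LPS, 8.59 ± 0.18 in unstimulated GM-DC, 8.43 ± 0.15 in GM-MF with LPS and 9.40 ± 0.20 in unstimulated GM-MF (SD, n = 3 each), and unstimulated GM-DC overlapped GM-MF with LPS.

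Fos, the partner of JUN proteins, had levels of 6.21, 6.33 and 6.59 in GM-DC with LPS, against 5.61, 4.92 and 6.33 in unstimulated GM-DC. It had 6.05, 6.16 and 6.25 in GM-MF with LPS, against 6.37, 6.41 and 6.43 in unstimulated GM-MF. The unstimulated GM-DC arrays were spread widely (SD 0.70), with replicate 3 well above the other two. Fos was lower in unstimulated GM-DC than in unstimulated GM-MF (difference -0.78 ± 0.24, adjusted p = 0.0184), and the call was lost without unstimulated GM-DC replicate 2 (-0.43, adjusted p = 0.0842). The LPS difference in GM-DC was 0.76 ± 0.24 with an adjusted p of 0.0653. It passed the test with the replicate block within cell type (adjusted p = 0.0205) and without unstimulated GM-DC replicate 3 (1.11, adjusted p = 0.000789). Of 24 alternative settings 6 called it, replicate 3 left out in both conditions among them. The LPS difference in GM-MF was -0.25 ± 0.24 (adjusted p = 0.587), although the GM-MF groups did not overlap. The group means were 6.38 ± 0.20 in GM-DC with LPS, 5.62 ± 0.70 in unstimulated GM-DC, 6.15 ± 0.10 in GM-MF with LPS and 6.40 ± 0.03 in unstimulated GM-MF (SD, n = 3 each). From the top the order was unstimulated GM-MF, GM-DC with LPS, GM-MF with LPS and unstimulated GM-DC, and each overlapped the next.

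Fosb, a FOS relative, had levels of 6.00, 5.77 and 6.38 in GM-DC with LPS, against 5.33, 5.10 and 6.26 in unstimulated GM-DC. It had 5.47, 5.49 and 5.53 in GM-MF with LPS, against 5.13, 4.89 and 4.89 in unstimulated GM-MF. GM-DC with LPS lay above both GM-MF groups, and unstimulated GM-DC overlapped both. The difference between GM-DC and GM-MF was 0.59 ± 0.23 without LPS (adjusted p = 0.0603) and 0.56 ± 0.23 with it (adjusted p = 0.0759). The LPS difference was 0.49 ± 0.23 in GM-DC (adjusted p = 0.261) and 0.52 ± 0.23 in GM-MF (adjusted p = 0.153). With the replicate block within cell type both LPS differences passed, in GM-DC with an adjusted p of 0.0321 and in GM-MF with one of 0.0144. Without unstimulated GM-DC replicate 3 the GM-DC response was 0.84 (adjusted p = 0.00345) and the GM-MF response had an adjusted p of 0.0178. The GM-DC response was also called without replicate 3 in both conditions. Without unstimulated GM-DC replicate 1 or 2 the unstimulated difference was 0.71 (adjusted p = 0.049) or 0.83 (adjusted p = 0.0105). The difference with LPS was 0.69 without GM-DC with LPS replicate 2 (adjusted p = 0.0497), and its adjusted p was 0.0444 and 0.00576 without unstimulated GM-DC replicate 2 or 3. The group means were 6.05 ± 0.31 in GM-DC with LPS, 5.56 ± 0.62 in unstimulated GM-DC, 5.50 ± 0.03 in GM-MF with LPS and 4.97 ± 0.14 in unstimulated GM-MF (SD, n = 3 each), in falling order, and each but the last pair overlapped.

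Junb, a JUN relative, lay between 7.63 and 8.23 over the 12 arrays and had the smallest range of group means of the 10, 0.40. Its mean levels were 7.87 ± 0.08 in GM-DC with LPS, 7.75 ± 0.14 in unstimulated GM-DC, 8.16 ± 0.04 in GM-MF with LPS and 7.88 ± 0.31 in unstimulated GM-MF (SD, n = 3 each). GM-MF with LPS ranked first, then unstimulated GM-MF, GM-DC with LPS and unstimulated GM-DC, each overlapping the next. Unstimulated GM-MF replicate 2 stood at 8.23, against 7.70 and 7.69 on the other arrays of its group. The LPS difference was 0.11 ± 0.13 in GM-DC (adjusted p = 0.766) and 0.28 ± 0.13 in GM-MF (adjusted p = 0.194), and without that array the GM-MF one was 0.46 (adjusted p = 0.00851). GM-DC minus GM-MF was -0.12 ± 0.13 without LPS (adjusted p = 0.58) and -0.29 ± 0.13 with it (adjusted p = 0.115). The second of these had an adjusted p of 0.0279 without that array, and was called at -0.34 under median centring (adjusted p = 0.0477) and at -0.45 under cyclic loess (adjusted p = 0.0244).

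The other AP-1 subunits, 10 genes of the ATF, BATF, JDP and remaining FOS and JUN families, are the possible partners of these 4. In unstimulated cells 2 were higher and 6 lower in GM-DC (median difference -0.68, against -0.01 over all genes), and with LPS 2 were higher and 4 lower. The shares of all genes were 18% and 16.2% without LPS and 20.9% and 15.4% with it. Batf3, a BATF factor needed for cross-presenting dendritic cells in mice, was 4.58-fold higher in unstimulated GM-DC (adjusted p = 4.55e-09) and 5.37-fold higher with LPS (adjusted p = 1.54e-09). Batf2 was 7.65-fold lower in unstimulated GM-DC (adjusted p = 3.04e-09) and 14.3-fold lower with LPS (adjusted p = 1.76e-10). Atf3, which restrains Toll-like receptor responses, was 3.37-fold lower in unstimulated GM-DC (adjusted p = 3.32e-07). LPS raised 2 and lowered 1 of the 10 in GM-DC, against 5.23% and 4.49% of all genes. It raised 2 and lowered 2 in GM-MF, against 6.54% and 10.8%. Batf rose with LPS 2.34-fold in GM-DC (adjusted p = 0.00279) and 4.87-fold in GM-MF (adjusted p = 6.52e-06), and Atf3 fell in GM-DC by 1.01 on the log2 scale (adjusted p = 0.000678).

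The LPS responses of the 2 cell types were set against each other in the same fit. Egr1 responded more in GM-DC, with 2.42 in GM-DC against 0.07 in GM-MF and a difference of 2.35 ± 0.19 (adjusted p = 2.34e-06). Nr4a3 responded more in GM-MF, with -0.08 in GM-DC against 2.58 in GM-MF, a difference of -2.65 ± 0.43 (adjusted p = 0.00121). Egr2 and Jun fell in GM-MF, by 1.97 and 0.97 on the log2 scale, where the GM-DC differences were -0.45 and 0.32. Their responses differed by 1.52 ± 0.19 (adjusted p = 0.000149) and 1.29 ± 0.18 (adjusted p = 0.000263). For Nr4a2 the difference was -0.75 ± 0.29 (adjusted p = 0.162), so its response is not shown to differ. For Fos it was 1.01 ± 0.34 (adjusted p = 0.0964), and 1.36 (adjusted p = 0.00197) without unstimulated GM-DC replicate 3 or 1.26 (adjusted p = 0.00469) without replicate 3 in both conditions. With the replicate block within cell type Fos passed (adjusted p = 0.0318), as did Egr3 (adjusted p = 0.0419), whose difference was 0.50 ± 0.20 with an adjusted p of 0.171 without the block. Nr4a1, Fosb and Junb had differences of -0.11, -0.04 and -0.17, with adjusted p of 0.754 or more.

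**Figure D2:**
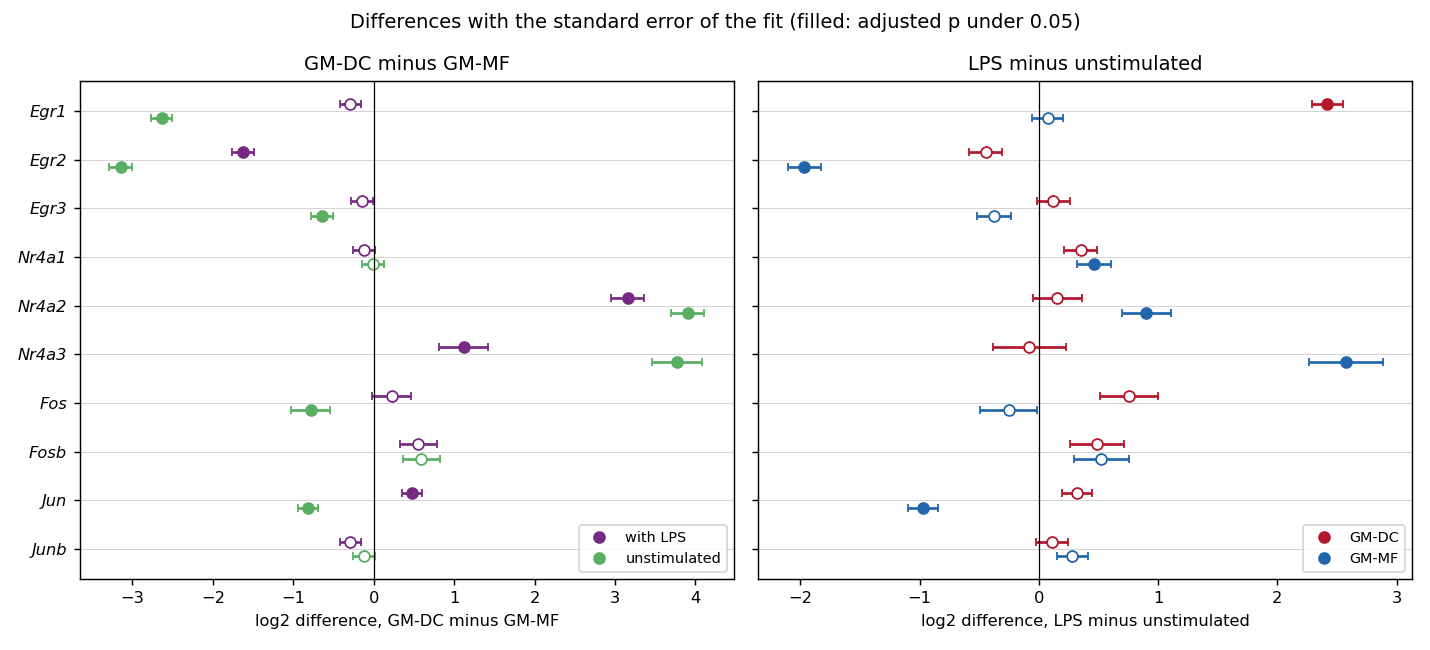
The log2 differences of the 10 genes are plotted with their standard errors, GM-DC minus GM-MF with and without LPS on one side and LPS minus unstimulated in GM-DC and in GM-MF on the other, with filled symbols for an adjusted p under 0.05. Egr1 and Nr4a3 show the widest gaps between the LPS responses, 2.42 against 0.07 and -0.08 against 2.58.

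Regulators that act on these genes differed between the cell types as well. SRF and its cofactors, 6 genes, had 2 higher and 2 lower in unstimulated GM-DC and 3 higher and 1 lower in GM-DC with LPS. The shares of all genes were 18% and 16.2% without LPS and 20.9% and 15.4% with it. Mrtfa, an actin-regulated SRF coactivator, had mean levels of 9.22 ± 0.22 in GM-DC with LPS, 9.59 ± 0.07 in unstimulated GM-DC, 6.18 ± 0.17 in GM-MF with LPS and 6.87 ± 0.15 in unstimulated GM-MF (SD, n = 3 each). It was 6.58-fold higher in unstimulated GM-DC (adjusted p = 1.97e-10) and 8.23-fold higher with LPS (adjusted p = 6.34e-11). LPS lowered 4 of the 6 in GM-MF, Srf itself and Elk1 among them, against 10.8% of all genes. The median of the list was -0.62 there, against -0.02 over all genes.

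The CREB family and its coactivators, 8 genes, had 5 higher and 1 lower in unstimulated GM-DC (median difference 0.76) and 5 higher with LPS. For these counts and the next, the shares of all genes were 18% and 16.2% without LPS and 20.9% and 15.4% with it. Crtc3, a cyclic AMP regulated CREB coactivator, was 2.08-fold higher in unstimulated GM-DC (adjusted p = 2.47e-05), and Crtc2 was 2.38-fold higher with LPS (adjusted p = 1.32e-07). Of the MAP kinase cascade, 13 of 18 listed genes were measured. In unstimulated cells 1 was higher and 8 lower in GM-DC (median difference -0.38), and with LPS 2 were higher and 5 lower. Rps6ka5, the MSK1 kinase that phosphorylates CREB and histone H3, was 5.56-fold higher in unstimulated GM-DC (adjusted p = 2.33e-09) and 5.51-fold higher with LPS (adjusted p = 2.57e-09). LPS raised 4 and lowered 1 of the 13 in each cell type, against 5.23% and 4.49% of all genes in GM-DC and 6.54% and 10.8% in GM-MF. Map3k8, the kinase that carries Toll-like receptor signals to ERK, rose 2.92-fold in GM-DC (adjusted p = 2.87e-06) and 1.94-fold in GM-MF (adjusted p = 0.000172).

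Other immediate early genes, 29 of 30 measured, were divided in the same comparisons. In unstimulated cells 10 were higher and 12 lower in GM-DC (median difference -0.20), and with LPS 6 were higher and 13 lower. The shares of all genes were 18% and 16.2% without LPS and 20.9% and 15.4% with it. LPS raised 6 and lowered 2 in GM-DC, against 5.23% and 4.49% of all genes. It raised 14 and lowered 7 in GM-MF, against 6.54% and 10.8%. The list's median in GM-MF was 0.37, against -0.02 over all genes. Arc, best known as a synaptic immediate early gene, was 13.0-fold higher in unstimulated GM-DC (adjusted p = 1.25e-11). Its mean levels were 8.10 ± 0.17 in GM-DC with LPS, 8.80 ± 0.03 in unstimulated GM-DC, 5.83 ± 0.09 in GM-MF with LPS and 5.09 ± 0.29 in unstimulated GM-MF (SD, n = 3 each). Myc, a growth regulator, was 7.09-fold lower in unstimulated GM-DC (adjusted p = 2.02e-09), and its LPS responses were 0.87 in GM-DC against -1.89 in GM-MF. Ptgs2, the inducible cyclooxygenase, rose with LPS 9.34-fold in GM-DC (adjusted p = 5.73e-06) and 13.8-fold in GM-MF (adjusted p = 8e-07). The growth arrest gene Gadd45b and the AXIN1-induced factor gene Csrnp1 rose in GM-MF by 1.88 and 1.65, where their GM-DC differences were 0.17 and 0.02.

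The heat shock genes, 8 of 9 measured, moved between the groups too. In unstimulated cells 4 were higher and 1 lower in GM-DC (median difference 0.26), against 18% and 16.2% of all genes. Their mean level was 8.97 to 9.06 in GM-DC with LPS and 8.79 to 8.83 in unstimulated GM-DC. It was 8.71 to 8.72 in GM-MF with LPS and 8.50 to 8.64 in unstimulated GM-MF. Hspa1a, an inducible HSP70 gene, was 1.88-fold higher in unstimulated GM-DC (adjusted p = 3.33e-05) and rose with LPS 2.29-fold in GM-DC (adjusted p = 1.93e-05) and 1.57-fold in GM-MF (adjusted p = 0.00213). LPS raised 2 and lowered 1 of the 8 in GM-DC, against 5.23% and 4.49% of all genes. It raised 3 and lowered 1 in GM-MF, against 6.54% and 10.8%. Hsph1, an HSP110 gene, fell with LPS in GM-DC by 0.73 on the log2 scale (adjusted p = 0.000141). The part of cell handling in the levels of the 10 genes was not tested.

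**Figure D3:**
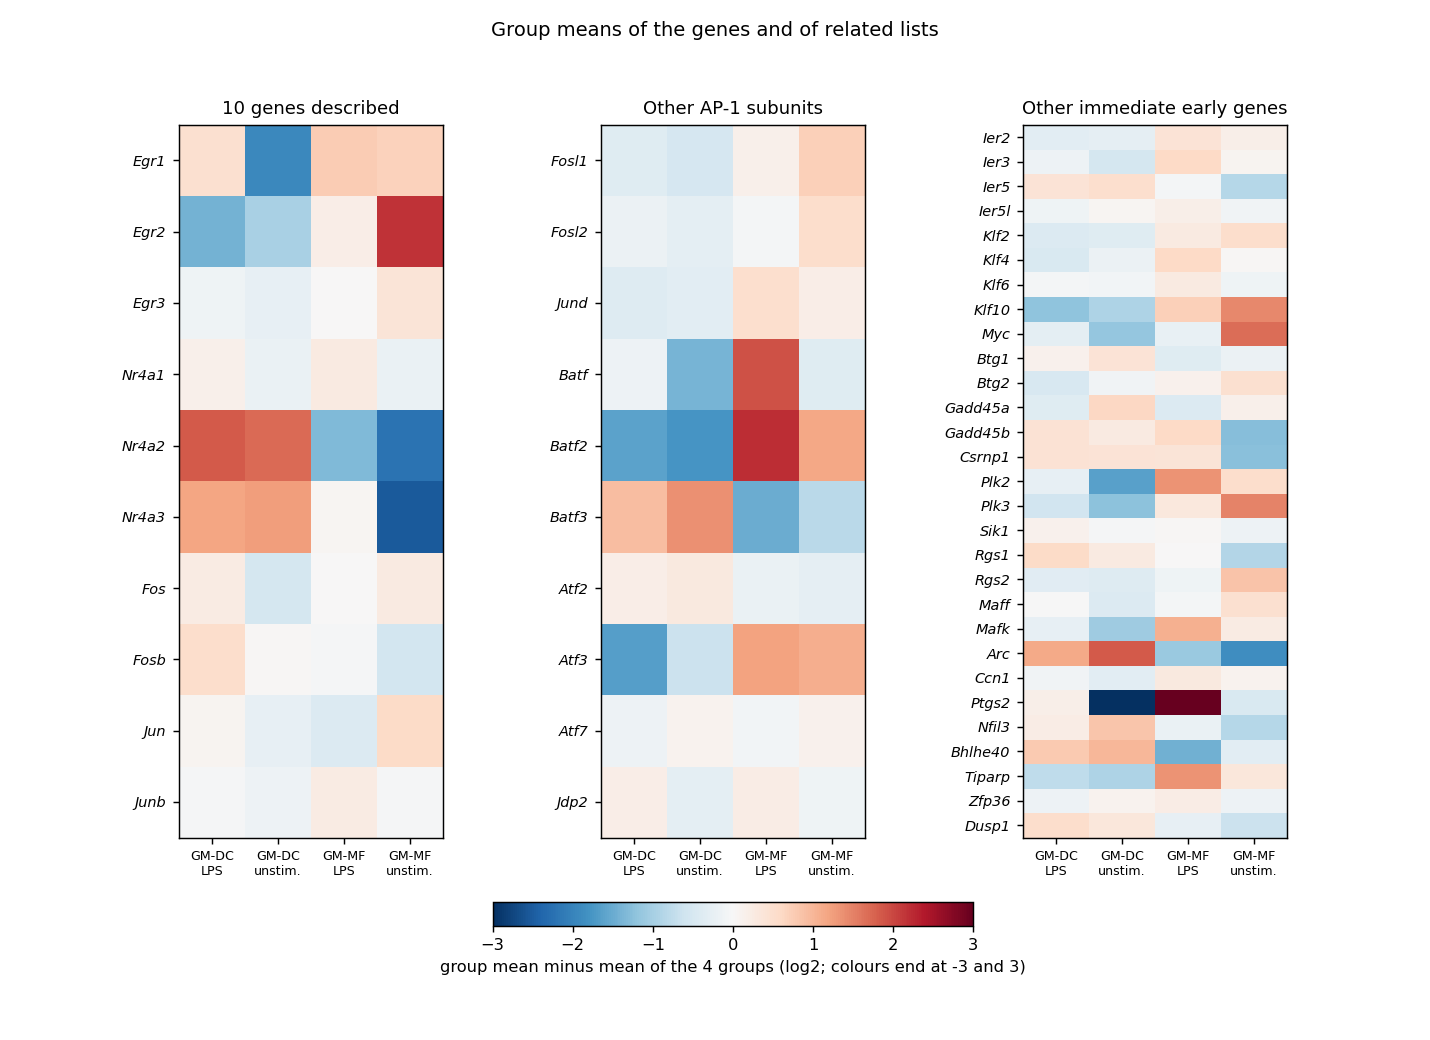
The heat map gives each gene's group means minus the mean of its 4 groups, in log2 units with colours that end at -3 and 3, for the 10 genes, the other AP-1 subunits and the other immediate early genes. Arc, Nr4a2 and Nr4a3 are high in the GM-DC columns, and Egr2, Myc and Plk3 are highest in unstimulated GM-MF, where Myc averaged 8.25 ± 0.26 (SD, n = 3).

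The genes whose profile over the 12 arrays was most like each of the 5 members with a range of group means of at least 1 were found by the root mean square difference after centring each gene on its mean. Genes with clone or model names were left out of this search and of the medians given here. For Egr1 the nearest were Stat2 (0.300), Parp9 (0.306) and Trim12a (0.321), where the median over the genes searched was 1.15. For Egr2 they were Slc36a1 (0.160), Vav1 (0.251) and Zfp36l2 (0.297), with a median of 1.41. For Nr4a2 they were Tmtc2 (0.215), Hmgn3 (0.299) and Pglyrp1 (0.299), with a median of 1.83. Nr4a3 lay nearest to Car2 (0.418), Ccl22 (0.456) and Vaultrc5 (0.469), with a median of 1.58. Fosb lay nearest to Hspa2 (0.181), Zbtb32 (0.186) and Ncoa5 (0.217), with a median of 0.526. A small value says only that the profiles run alike over these 12 arrays.

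**Figure D4:**
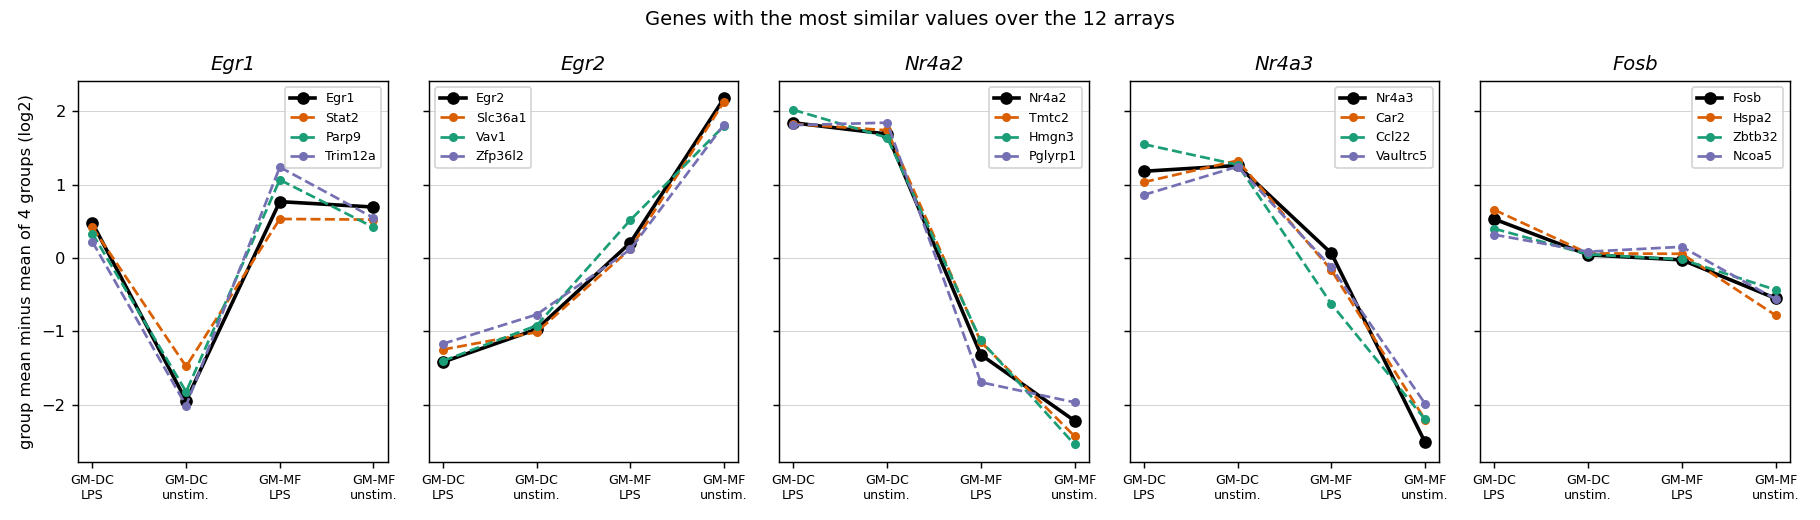
Each panel plots the centred log2 group means of a member and of its 3 nearest genes over the 4 groups. The distances given above are over the 12 arrays and not over these means, and the smallest of them was 0.160, for Egr2 and Slc36a1.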

How the data were processed

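Total RNA of 12 samples was measured on 1-colour Affymetrix arrays. The deposited values are log2 expression. Per the submitters' processing notes, the authors used RMA and R 3.0.2. The log base is read from the value range, 1.18 to 13.7, and RMA's settings are not given in the sources used here. No probe set has a background call, since scanner output was not used here, and the number of arrays limits the precision. Of 35556 probe sets, 21789 carry 1 gene symbol, 1621 several and 12146 none in the platform annotation. The brightest single-symbol probe set by mean was kept per gene, which gave 19938 genes.

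Group means were fitted with limma 3.58.1 (R 4.3.3) with 4 groups on 12 arrays, 8 residual degrees of freedom and 5 contrasts, with Benjamini-Hochberg adjustment of p-values over all genes. The scripts were tested on simulated data. The 10 members and all gene lists were chosen with earlier results of these data known. Beside the members, up to 4 called genes per list and comparison with the largest differences were named, up to 2 per direction, or the 2 brightest where none was called, and the 3 nearest genes of each member with a range of at least 1. Egr4 is named as well, as the EGR gene outside the 10.

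Replicate numbers come from the sample titles. Deviations of same-numbered arrays from their group means correlated at 0.119 to 0.363 within GM-DC and 0.104 to 0.257 within GM-MF, all over 0.1, which was taken as pairing LPS with unstimulated arrays. Differently numbered arrays correlated at -0.250 to 0.164 within GM-DC, 2 of them over 0.1, and at -0.216 to 0.0254 within GM-MF, so within GM-DC only replicate 3 is set apart by its number. Same-numbered arrays of different cell types correlated at -0.168 to 0.0117 without LPS and -0.0047 to 0.156 with it. Unstimulated GM-MF and GM-DC with LPS gave -0.035 to 0.233. In each of the last 2 sets only the pair of replicate 1 was over 0.1. Differently numbered arrays of different cell types reached 0.184. Whether the cell types share replicates was not tested. The alternatives tried were 3 scalings, 2 filters, a gene mean over probe sets, other variance settings, blocks, array weights and leaving out arrays. Promoters are RefSeq windows of GRCm38.p6, and the build behind the array annotation is not given in the sources used here.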

Additional observations from a re-analysis of the deposited data

Results flagged for a closer look

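The LPS responses of GM-DC and GM-MF differed by limma's test of the difference itself (adjusted p under 0.05) for 4 of the 10 members. The same held for 3 of 10 other AP-1 subunits and 14 of 29 other immediate early genes (5 positive, 9 negative). Of all genes, 4.53% were called positive and 3.06% negative. Values are given as GM-DC minus GM-MF on the log2 scale. Among the 10 members these were Egr1 at 2.35 (adjusted p = 2.34e-06), Egr2 at 1.52 (adjusted p = 0.000149), Jun at 1.29 (adjusted p = 0.000263) and Nr4a3 at -2.65 (adjusted p = 0.00121). Among the other AP-1 subunits, Fosl2 differed by 0.71 (adjusted p = 0.0355), with 0.13 in GM-DC against -0.57 in GM-MF. Atf3 differed by -1.12 (adjusted p = 0.00538), with -1.01 in GM-DC against 0.11 in GM-MF, and Batf2 by -0.90 (adjusted p = 0.0408), with 0.15 against 1.05. Among the other immediate early genes, of which 4 are named, Myc differed by 2.76 (adjusted p = 3.67e-06) and Plk3 by 1.82 (adjusted p = 0.000159), and both fell in GM-MF. Gadd45b differed by -1.71 (adjusted p = 2.33e-05) and Csrnp1 by -1.63 (adjusted p = 1.54e-05), and both rose in GM-MF. In the smaller lists the difference was 0.64 for Nab1 (adjusted p = 0.00554), 0.79 for Elk1 (adjusted p = 0.0234), 0.58 for Mrtfb (adjusted p = 0.0261), 1.38 for Rxra (adjusted p = 0.00047) and 1.05 for Mapk8 (adjusted p = 0.00373). Groups of 3 arrays are too small for a test of single outlying arrays.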

How the results depend on the processing

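The 10 members gave 50 results in 5 comparisons, and 33 of them stayed on their side of the threshold under every one run for them of 24 alternative settings, 12 of which left out 1 array each. Of 21 called differences, 18 were called under every setting run, and 0 results changed direction among called values. The count of members called moved by more than 1.5 times for the LPS response of GM-DC, where it was 1 in the main fit. It was 2 under quantile normalization, cyclic loess, the filter on 3 arrays above the table median or limma with trend and robust settings. With only genes of a mean above the table median it was 3, and with array weights 4. With the replicate number as a block the count was 3, and 4 with the block within each cell type. The block within each cell type also gave 7 members for the LPS response of GM-MF and 6 for the difference of responses, against 5 and 4. The shares of all genes called that are given above are those of the main fit, and those under the blocks are not given. With GM-DC replicate 3 left out in both conditions, an alternative chosen after seeing the data, the count for GM-DC was 4. Leaving out 1 array at a time gave 1 to 5 members there, the 5 without unstimulated GM-DC replicate 3, and 7 to 8, 4 to 5, 4 to 6 and 4 to 5 members for unstimulated GM-DC against GM-MF, for GM-DC against GM-MF with LPS, for the LPS response of GM-MF and for the difference of responses. Over all genes, leaving out 1 array gave 6197 to 6940, 6593 to 7407, 1331 to 2009, 2717 to 3623 and 1180 to 1748 calls for unstimulated cells, cells with LPS, GM-DC, GM-MF and the difference, against 6827, 7228, 1938, 3461 and 1514 with all arrays. Under cyclic loess the share of calls that were higher was 47.2% for GM-DC against GM-MF with LPS and 49.4% for the LPS response of GM-MF, against 57.6% and 37.7% as deposited. Fos in unstimulated cells had an adjusted p of 0.059 with only the arrays compared. The block changed no call of a member between the cell types except Fosb, at adjusted p of 0.0306 without and 0.0403 with LPS. The causes were not tested.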
